A study of Mus musculus with 6 samples.

Results

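The proliferin genes of mouse 3T3 fibroblasts are described here through their 3 expressed copies, Prl2c2, Prl2c3 and Prl2c5. They are 3 of the 54532 genes in the count tables, and they were chosen from these same tables because their counts were higher after knockdown than in control. Their own differences between the groups are therefore given as a description, with no test. The comparison involved 6 libraries of poly(A)+ RNA from 3T3 cells, an established line of mouse embryonic fibroblasts. The 3 control libraries came from cells given a control siRNA, and the 3 SAFB KD libraries from cells given siRNAs against Safb, Safb2 and Sltm together, whose products are related nuclear RNA-binding proteins. The siRNA was given at 5 nM and again after 24 h. The knockdown is transient and partial, and both groups derive from a single line.

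Proliferins are secreted glycoproteins of the prolactin hormone family. They are known from growth-stimulated fibroblast lines, where serum and growth factors induce them, and from placental giant cells, which release them towards the maternal blood vessels. Proliferin binds the mannose 6-phosphate receptor encoded by Igf2r and acts on endothelial cells, and its promoter is a textbook case of joint regulation by AP-1 and the glucocorticoid receptor. The mouse genome carries several near-identical copies of the gene, so reads that match more than 1 copy equally well are absent from the counts.

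The copies share a layout of 5 exons. On GRCm38, Prl2c3 (ENSMUSG00000056457.6) lies on the minus strand at chr13:12790816-12800079, Prl2c2 (ENSMUSG00000079092.4) on the minus strand at chr13:12996125-13005383, and Prl2c5 (ENSMUSG00000055360.13) on the plus strand at chr13:13182715-13191923. The other 23 annotated genes of the prolactin family on that chromosome, Prl2c1 among them, form a group at chr13:27057570-28151611, which begins 13.9 megabases beyond Prl2c5. The expressed proliferin genes are thus apart from the main prolactin cluster in this annotation. Prl2c4, a name that RefSeq lists as a synonym of Prl2c3, has no row of its own.

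The coding sequences of Prl2c2 and Prl2c3 are both 675 bases long and differ at 3 bases, an identity of 99.6%. Prl2c5 has 669 coding bases and differs from Prl2c2 at 20 of 669 aligned bases, with 6 bases in gaps (97.0% identity). Prl2c1 is the most distant of the 4, with 94.1% identity to Prl2c2 over its coding sequence. The following 60 bases of exon 4 (coding positions 317 to 376) are shown because they illustrate how few letters assign a read. They hold 1 of the 3 differences between Prl2c2 and Prl2c3. This gap-free stretch within 1 exon was picked for most differences between Prl2c2 and Prl2c3, then among the copies. It is therefore not a typical stretch. Capitals mark the 5 sites that differ among the copies, and the stretches lie at chr13:12997407-12997466, chr13:12792114-12792173 and chr13:13190587-13190646 on the strand of each gene.
Prl2c2: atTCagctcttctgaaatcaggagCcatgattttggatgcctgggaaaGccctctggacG
Prl2c3: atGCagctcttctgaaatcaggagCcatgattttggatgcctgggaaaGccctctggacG
Prl2c5: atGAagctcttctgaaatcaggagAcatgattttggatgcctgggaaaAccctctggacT
Prl2c3 differs from Prl2c2 at 1 of these 60 bases, and Prl2c5 differs from Prl2c2 at 5.

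The share of each spliced transcript that could yield an unambiguous read was measured with windows of 100 bases, compared with the transcripts of all other genes on both strands. In Prl2c2, 250 of 743 windows (33.6%) occurred in no other gene, and in Prl2c3 286 of 758 (37.7%). In Prl2c5 the figure was 680 of 745 (91.3%). Prl2c2 shared 472 windows with Prl2c3, 129 with the pseudogene Gm7040 and 21 with Prl2c5. Gm7040 itself had 3 reads in SAFB KD 1 and none in the other libraries. The gap between Prl2c2 and Prl2c3 was wider with shorter windows, at 83 against 173 unique windows of 50 bases and 153 against 236 of 75 bases. Prl2c5 had the most unique sequence at each length tried. The read length is not given in the sources used here. Only annotated transcripts were searched, not the genome, so each share is an upper limit for its own window length alone. Longer fragments could be placed more often, as shares at 300 bases were 69.2% for Prl2c2 and 70.1% for Prl2c3. A single transcript of each copy was used, so other annotated exon sequence was left out.

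**Figure D1:**
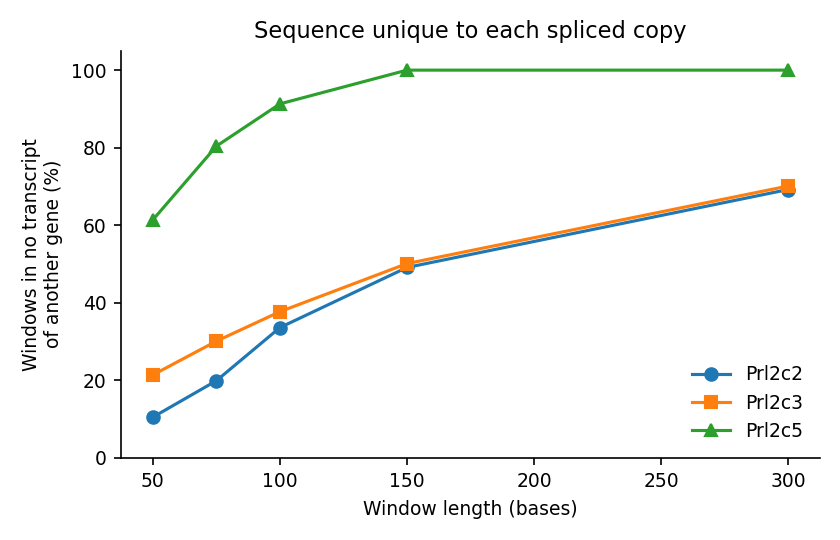
Share of windows of each spliced proliferin copy that occur in no annotated transcript of another gene (vertical axis, percent) against window length (horizontal axis, bases). The share rose with length in all 3 copies; at 100 bases it was 33.6% for Prl2c2, 37.7% for Prl2c3 and 91.3% for Prl2c5.

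Upstream sequence was available from RefSeq (GRCm38.p6) for Prl2c3 and Prl2c5. It was searched on both strands for TGANTCA, the AP-1 binding core with any base allowed in the middle. The middle base of the match in Prl2c3 was A, and stricter forms of the core were not counted apart. The 250 bases before each RefSeq start are shown because they differ at this match. Capitals mark the TGANTCA match of Prl2c3 and the 7 aligned bases of Prl2c5, which differ from it at 1 base.
Prl2c3 (chr13:12800080-12800329, minus strand): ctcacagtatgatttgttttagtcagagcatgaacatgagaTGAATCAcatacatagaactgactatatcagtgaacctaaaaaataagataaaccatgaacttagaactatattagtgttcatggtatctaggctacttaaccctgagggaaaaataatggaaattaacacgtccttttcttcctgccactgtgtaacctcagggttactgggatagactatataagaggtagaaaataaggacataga
Prl2c5 (chr13:13182466-13182715, plus strand): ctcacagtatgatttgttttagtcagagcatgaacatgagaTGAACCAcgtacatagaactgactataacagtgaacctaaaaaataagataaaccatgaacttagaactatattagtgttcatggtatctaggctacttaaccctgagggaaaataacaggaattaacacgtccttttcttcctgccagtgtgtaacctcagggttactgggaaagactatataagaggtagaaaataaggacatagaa
The windows are 96.8% identical over 249 aligned bases, with 8 differing bases and 2 in gaps. In both, the capitals begin at position -209, counted from the RefSeq start with the last base before it as -1. By these coordinates the Prl2c5 window ends on the first base of the gene as placed above, whereas the Prl2c3 window ends just before its gene. The window of Prl2c5 held no exact TGANTCA. Near matches were not searched in either window, so this does not show that Prl2c5 lacks a site for AP-1. No upstream sequence was available for Prl2c2, the copy with most reads. The pattern TGANTCA was present in 2217 of 32851 promoters of the same length (6.75%), and in 6 of the 20 other prolactin family genes with an entry. Both windows also contained TATATAA, at -30 in Prl2c3 and -31 in Prl2c5, a run found in 3.04% of promoters. AGAACA, part of the element bound by the glucocorticoid receptor, was in neither window and in 16.1% of promoters.

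Prl2c2 carried nearly all of the uniquely placed proliferin reads. Its counts were 1213, 1233 and 1070 in control 1 to 3 and 4238, 4884 and 6158 in SAFB KD 1 to 3. After scaling to library size with TMM factors (CPM), the control libraries were at 28.0, 30.3 and 31.9 CPM and the SAFB KD libraries at 120.4, 113 and 117 CPM. Every SAFB KD library lay above every control library, and the spread within either group was small beside the gap. The means were 30.1 ± 1.97 CPM in control and 117 ± 3.58 CPM in SAFB KD (SD, n = 3 per group), a ratio of 3.90. The fitted log2 fold change was 1.96 (SE 0.0425, edgeR).

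Prl2c3 was present at a much lower level. It had 11, 16 and 7 reads in control 1 to 3 and 112, 130 and 129 reads in SAFB KD 1 to 3. These correspond to 0.253, 0.394 and 0.208 CPM in control and to 3.18, 3.02 and 2.46 CPM in SAFB KD, without overlap. The mean went from 0.285 ± 0.0967 to 2.89 ± 0.379 CPM, a ratio of 10.1, with a fitted log2 fold change of 3.30 (SE 0.249).

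Prl2c5 was close to the limit of detection. A single read was counted in control 2 and none in control 1 or 3, against 7, 6 and 10 reads in SAFB KD 1 to 3. Since 3 counts correspond to 0.0691 and 0.0893 CPM in control 1 and 3, values below these could not be distinguished from a count of 0 there. The ratio of summed counts, corrected for library size, was 20.7, with an exact 95% interval of 3.36 to 852 that covers counting error only. Prl2c1, the remaining annotated copy, had 1 read in control 2 and none in the other 5 libraries.

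**Figure D2:**
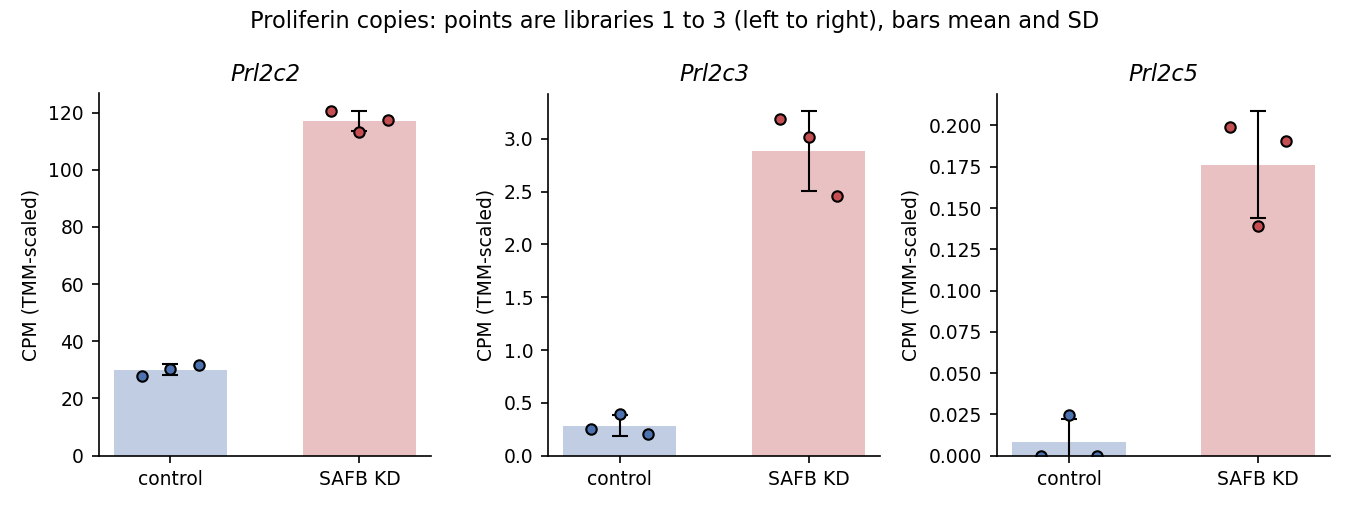
Level of Prl2c2, Prl2c3 and Prl2c5 in CPM (vertical axes, linear, a scale of its own for each gene) in control and SAFB KD. Points are single libraries, bars the mean and lines the SD of 3; control means were 30.1, 0.285 and 0.0082 CPM and SAFB KD means 117, 2.89 and 0.176 CPM.

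All 3 genes passed the filter of at least 10 reads over the 6 libraries, Prl2c5 only through its SAFB KD reads, since it had 1 control read in all. Of the 19452 genes tested with the quasi-likelihood test of edgeR, 41.5% were called (adjusted p under 0.05), 21.4% as higher and 20.1% as lower. For 25.3% of tested genes the lowest SAFB KD library was above the highest control library, as it was for the 3 copies. Nothing is read from these shares for the copies themselves.

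Added within each library, the 3 copies gave 28.2, 30.8 and 32.1 CPM in control and 123.8, 116 and 120.1 CPM in SAFB KD. The summed level was 30.3 ± 1.96 CPM in control and 3.96 times that in SAFB KD, and the lowest SAFB KD library was 3.63 times the highest control library. Because Prl2c2 made up 99.0% of the summed reads in control and 97.5% in SAFB KD, the sum is mostly Prl2c2. In bulk RNA, more cells that make proliferin and more proliferin RNA per cell cannot be told apart.

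Relative to gene length, Prl2c2 stood at 27.6 CPM per kb of exon in control and 107 CPM per kb in SAFB KD. On that scale it was above 91.1% of the 19444 tested genes with a known length in control and above 98.1% in SAFB KD. Prl2c3 was at 0.210 and 2.12 CPM per kb, above 26.1% and 50.3% of tested genes. Prl2c5 was the lowest, at 0.00697 and 0.150 CPM per kb. The order Prl2c2, Prl2c3, Prl2c5 held in all 6 libraries, and the levels of neighbours in that order did not overlap within either group. Since reads common to several copies are missing, these levels cover the uniquely placed reads of each copy alone.

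The shares of the copies in the counted reads also differed between the 2 groups. Prl2c3 supplied 0.899%, 1.28% and 0.650% of the summed proliferin reads in control 1 to 3 and 2.57%, 2.59% and 2.05% in SAFB KD 1 to 3. Pooled by group these shares were 0.957% (exact Clopper-Pearson 95% interval 0.664 to 1.34%) and 2.37% (2.13 to 2.62%). All intervals given here cover counting error only, and the pooled ones leave out the spread between libraries. The intervals of single libraries were wide in control and touched in part, with 0.733 to 2.07% in control 2 and 1.71 to 2.43% in SAFB KD 3. Expressed per 100 Prl2c2 reads, there were 0.654 to 1.30 Prl2c3 reads in control and 2.09 to 2.66 in SAFB KD. Prl2c5 contributed 0.0282% in control and 0.147% in SAFB KD (pooled intervals 0.000713 to 0.157% and 0.0930 to 0.220%, which overlap). These shares come from the same counts that chose the genes and are not tested.

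Every copy held 3 sites of GAAGAA in its spliced transcript, the purine-rich hexamer that the study links to binding by SAFB proteins in human cells. This is 3.56 sites per kb in Prl2c2, 3.55 in Prl2c5 and slightly fewer in Prl2c3, whose transcript is longer (857 bases), against a median of 0.714 per kb over 21291 coding transcripts. Between 97.5% and 97.6% of those transcripts had fewer per kb. Overlapping sites were counted, and only the coding strand was read. The adenosine content was 30.0 to 30.6% (median of all 25.5%), whereas the purine content was 49.3% in Prl2c2 and 49.7% in Prl2c3, close to the median of 50.5%. The study also describes a preference of SAFB proteins for long stretches of RNA. The spliced transcripts of the copies were 842 to 857 bases long. The copies are near-identical, so their sites are not independent of each other. Binding of SAFB proteins to these transcripts was not tested, and introns were not analysed here.

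The other prolactin family genes were almost silent. Of 23 listed genes, including the pituitary hormones Prl and Gh, 14 had no read in any library and 1 passed the filter. That gene, Prl8a9, a placental family member, had no read in control 1 to 3 and 7, 1 and 5 reads in SAFB KD 1 to 3. With the control set at a limit of 3 counts over the group and the SAFB KD reads taken as exact, the ratio was 3.90. This is not a lower bound, as the exact 95% interval of the ratio, for counting error only, began at 2.74. Prl8a9 passed the filter through its SAFB KD reads alone, so no test of it and no minimum rise are given. Prl itself had a single read, in SAFB KD, and the remaining genes of the family were too low to test.

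Cell type markers were checked beside these values. All 10 fibroblast markers had reads, with a summed level of 18830 to 20748 CPM in control and 17447 to 17916 CPM in SAFB KD. Of the 10, 7 were called lower, 1 higher and 2 not called, beside 20.1% lower and 21.4% higher of all tested genes. Log2 fold changes of those called lower ran from -1.36 to -0.08, and the sum was mostly Fn1 and Col1a2. The growth factor receptor genes Pdgfra (366 to 142 CPM, log2 fold change -1.36) and Pdgfrb (118 to 53.7 CPM, -1.13) were among those lower, Fap (1.76) was the one higher, and Fn1 was not called (9469 and 9698 CPM). Of 9 trophoblast markers, Tpbpb, Gcm1, Ctsq, Hand1 and Synb had no read, and the summed level was 2.17 to 3.30 CPM in control and at most 3.53 CPM in SAFB KD, most of it from Plac1. Of 32 trophoblast genes in the wider list, 17 had no read and 7 were tested. None of the 7 was called higher by edgeR (21.4% of all tested genes), DESeq2 or limma-voom. At an unadjusted p under 0.05 by edgeR, 0 were higher. By edgeR 3 of the 7 were called lower (20.1% of all tested genes). The 3 called lower were the pregnancy-specific glycoprotein gene Psg17 (0.868 ± 0.228 to 0.147 ± 0.0797 CPM, log2 fold change -2.48), the protease gene Pappa2 (-0.27) and the transcription factor gene Gata2 (-0.17, adjusted p = 0.0414). The call of Gata2 was lost with DESeq2, with the replicate block, with no filter but 1 read, and without control 1, control 2, SAFB KD 2 or SAFB KD 3 in turn (edgeR adjusted p = 0.162, 0.0565, 0.0581 and 0.197). The 6 leukocyte markers summed to 3.54 to 4.38 CPM in control and 6.48 to 8.48 CPM in SAFB KD, of which Cd68 gave 3.82 and 7.54 CPM on average, while the defining marker Ptprc had 2 reads in each group. The 4 endothelial markers, of which Kdr had no read, summed to 7.89 to 8.39 and 9.38 to 10.4 CPM. The 4 epithelial markers, of which Epcam and Krt18 had no read, stayed at or below 0.455 CPM in sum, and the 3 pituitary markers at or below 0.179 CPM. The part of the leukocyte and endothelial markers in the proliferin values was not tested.

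The siRNA targets were lower in SAFB KD, as a check of the labels. Safb was at 0.497, Safb2 at 0.640 and Sltm at 0.615 times its control level, and all 3 were called lower. Total counts were 33323307 to 53441129 per library.

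The annotation lists 48 other genes within 500 kb of a copy, of which 24 had no read and 15 were tested. Of those 15, 5 were called higher (33.3%, against 21.4% of all genes tested) and 0 lower. At an unadjusted p under 0.05, 7 were higher and 1 lower by edgeR, and DESeq2 and limma-voom also called 0 lower. The median log2 fold change of the 15 was 0.12, against 0.01 for all tested genes. The 5 were Lgals8, which encodes a galectin (log2 fold change 0.34, SE 0.0458), the membrane protein gene Gpr137b (0.59, SE 0.0543), its pseudogene copy Gpr137b-ps (0.52, SE 0.0713), the basement membrane gene Nid1 (0.29, SE 0.0274) and the lysosomal trafficking gene Lyst (0.20, SE 0.0439). Gpr137b and Gpr137b-ps are close in sequence, so reads common to both would be missing from each.

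Other neighbours were not called. The ribosome biogenesis gene Heatr1 was at 87.0 ± 1.96 CPM in control and 92.0 ± 4.20 CPM in SAFB KD, and the oxidoreductase gene Ero1lb at 6.32 ± 0.687 and 5.74 ± 0.432 CPM. Edaradd, an adaptor of ectodysplasin signalling, was at 0.152 ± 0.0846 and 0.0313 ± 0.0139 CPM, with a log2 fold change of -2.16 (SE 0.938) that was not called (edgeR adjusted p = 0.0624). The pseudogenes and unclassified transcripts Gm48445, Gm48455, Gm2399, Gm7042, Gm2423, Gm5374 and Gm48783 all had means below 1.7 CPM in either group, with log2 fold changes from -0.93 to 1.75 and standard errors of 0.190 to 1.15. In size, Edaradd was the one tested neighbour with a fitted change beyond the 1.96 of Prl2c2, in the opposite direction and at a level near the limit of detection.

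**Figure D3:**
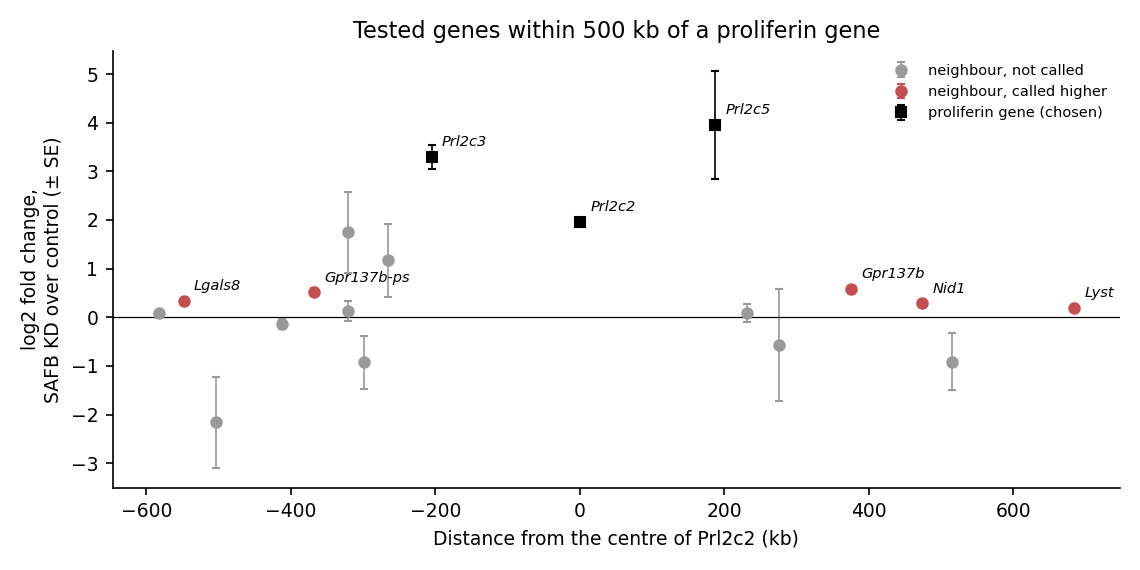
log2 fold change of SAFB KD over control (vertical axis, bars are the SE of the fit) of tested genes within 500 kb of a copy, against distance from the centre of Prl2c2 (horizontal axis, kb). The proliferin genes, chosen on this contrast (black squares), lie at 1.96, 3.30 and 3.96, above the 5 neighbours called higher (red, 0.20 to 0.59); the value of Prl2c5 depends on the fit, since it had 1 control read.

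The receptors and enzymes through which proliferin and related hormones act or are taken up were mostly present. Prlr, the prolactin receptor, had no read in any library. Igf2r, the mannose 6-phosphate receptor that binds proliferin, rose from 388 ± 12.3 to 468 ± 15.9 CPM (log2 fold change 0.27, SE 0.0310, edgeR adjusted p = 1.37e-09). M6pr, the cation-dependent mannose 6-phosphate receptor, rose by a similar amount (0.23, SE 0.0314). Gnptab, a subunit of the enzyme that adds the phosphate tag, fell from 88.8 ± 0.676 to 56.9 ± 2.35 CPM (-0.64, SE 0.0378), and the growth hormone receptor gene Ghr fell as well (-0.35, SE 0.0344). Of 7 tested genes in this list, 2 were called higher and 3 lower, beside 21.4% and 20.1% of all tested genes, with a median of -0.07 on the log2 scale.

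Components of the JAK and STAT pathway downstream of prolactin receptors showed falls and rises. Of 12 tested genes, 6 were lower, 3 higher and 3 not called, with a median of -0.13; over all tested genes, 20.1% were lower and 21.4% higher. The feedback inhibitor genes Cish (15.2 ± 0.725 to 9.14 ± 0.338 CPM, -0.74) and Socs2 (-0.68) fell, as did Stat5b (-0.43), which encodes a main transducer of prolactin signals. Socs3, another feedback inhibitor, rose (0.47, SE 0.0408). Jak2, the kinase bound to the receptor, was at 68.9 ± 0.671 and 65.2 ± 2.04 CPM and was not called.

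Subunits of AP-1 and related factors were mostly called higher. This list was drawn up with earlier results of these data known, so its counts are a description. Of 13 tested genes, 9 were higher (21.4% of all tested genes), 3 lower (20.1%) and 1 not called, and the median was 0.18. The 3 were Fos, Fosl2 (-0.15) and Maf (-0.78), the last 2 named after their values were seen. Maf was not called by DESeq2 or limma-voom, nor without control 3, SAFB KD 1 or SAFB KD 2 (edgeR adjusted p = 0.210, 0.130 and 0.113). Atf3, a stress-induced subunit, rose from 2.76 ± 0.116 to 8.93 ± 0.633 CPM (log2 fold change 1.69, SE 0.108). The small Maf genes Mafk (0.57) and Maff (0.48) rose, whereas Fos fell from 19.9 ± 0.595 to 13.7 ± 0.814 CPM (-0.54, SE 0.0651). Jun rose by 0.14 on the log2 scale (195.3 ± 3.09 to 216 ± 3.69 CPM), Junb by 0.14 and Fosl1 by 0.21.

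The glucocorticoid receptor gene Nr3c1 was slightly lower in SAFB KD (163 ± 3.10 to 149 ± 2.63 CPM, log2 fold change -0.12, SE 0.0315). Of the 12 tested genes of the receptor list, which holds Nr3c1, Nr3c2 and targets, 5 were higher and 4 lower, beside 21.4% and 20.1% of all tested genes, with a median of 0.00. Targets moved both ways. Dusp1, a phosphatase gene, rose (0.58), as did Glul (0.52) and Fkbp5 (0.23), while the kinase gene Sgk1 fell from 391 ± 3.64 to 266 ± 6.34 CPM (-0.55, SE 0.0297).

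Secreted and other genes that growth factors induce in fibroblasts, as they do proliferin, were mostly higher. This list too was drawn up with earlier results of these data known, so its counts are a description. Of 25 genes, all tested, 20 were called higher (21.4% of all tested genes), 1 lower (20.1%; the chemokine gene Ccl2, log2 fold change -0.28) and 4 were not called, with a median of 0.58 against 0.01 for all genes. Hmox1, the heme oxygenase gene, rose from 33.6 ± 0.504 to 122 ± 2.97 CPM (1.86, SE 0.0381). Ptgs2, the inducible cyclooxygenase gene (0.99), and Has2, a hyaluronan synthase gene (0.80), also rose. Mmp13 and Mmp10, collagenase and stromelysin genes named after their values were seen, had the largest changes of the list, at 3.22 (SE 0.311) and 2.93 (SE 0.303), from 0.194 and 0.213 CPM in control.

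Among genes of vessel growth, the process that proliferin stimulates, 8 of 19 were higher (21.4% of all tested genes), 7 lower (20.1%) and 4 not called, with a median of -0.01. Thbs1, which encodes an inhibitor of vessel growth, rose from 1374 ± 66.1 to 2987 ± 84.5 CPM (log2 fold change 1.12, SE 0.0304). The matricellular genes Ccn2 (0.81) and Ccn1 (0.60) rose, and so did Vegfa (0.51), a main vessel growth factor. Vegfa is also one of the growth-induced genes. The 7 called lower included Angptl4 (-0.99) and Vegfd (-0.55), both named after their values were seen.

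**Figure D4:**
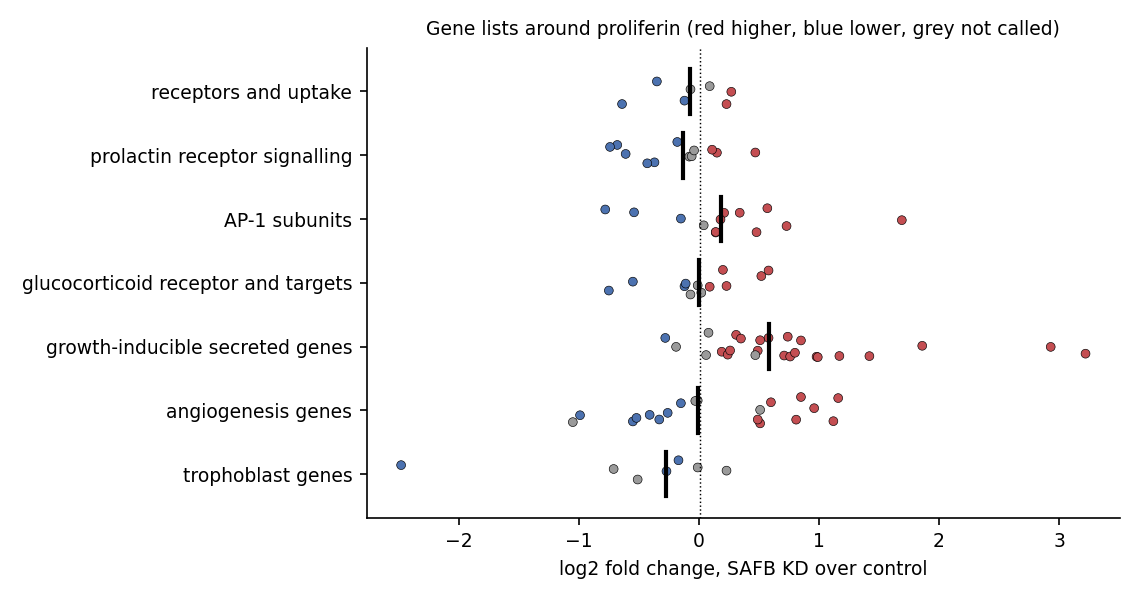
log2 fold change of SAFB KD over control (horizontal axis) of each tested gene in 7 lists (rows), with the median of each list as a black bar and that of all genes (0.01) as a dotted line. Red points were called higher, blue lower and grey not called; vertical scatter within a row has no meaning. Medians were 0.58 for growth-inducible secreted genes, 0.18 for AP-1 subunits and between -0.27 and 0.00 for the other lists. The lists were chosen with earlier results of these data known.

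The pattern of summed proliferin over the libraries was compared with that of 12101 other genes whose mean reached 1 CPM, as the root mean square difference of centred log2(CPM + 0.05) profiles over the 6 libraries. The median difference was 0.99. The 8 closest genes were Ppbp (0.0606), a chemokine precursor, Gm45902 (0.0996), Hmox1 (0.101), Ccl8 (0.136), another chemokine gene, Hsd3b6 (0.138), a steroid dehydrogenase gene, Cck (0.146), which encodes the peptide cholecystokinin, Itga2 (0.149), which encodes an integrin subunit, and Gcnt1 (0.151), which encodes a glycosyltransferase. Ppbp was at 4.06, 4.23 and 4.35 CPM in control 1 to 3 and at 15.7, 16.0 and 15.8 CPM in SAFB KD 1 to 3, so its groups did not overlap. The ratios of these genes between the groups were 3.31 to 4.45, around the 3.96 of summed proliferin. None of them is a neighbour of the copies. Itga2 is on chromosome 13 as well, and the others are on chromosomes 2, 3, 5, 8, 9, 11 and 19. Over the same 12101 genes, 31 had a ratio at or above that of summed proliferin. The profile is set mainly by the contrast that chose the copies, so this likeness is a description.

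**Figure D5:**
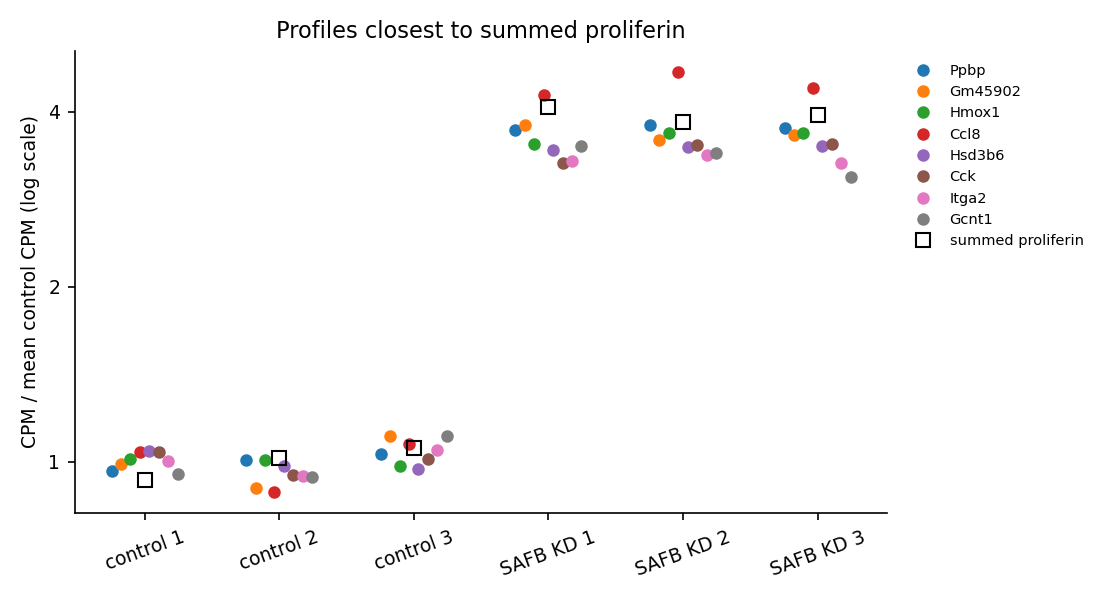
CPM of summed proliferin (open squares) and of the 8 genes with the closest profiles (coloured points, offset sideways for clarity), each divided by its mean in control (vertical axis, log scale), in the 6 libraries (horizontal axis). All 9 profiles were near 1 in control and about 3 to 5 in SAFB KD, with no overlap between the groups.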

How the data were processed

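Poly(A)+ RNA was sequenced from 3 control and 3 SAFB KD libraries of 3T3 cells, with groups and replicate numbers taken from the sample titles. The deposited values were counts, whole numbers of reads per gene, which the authors made by trimming reads and aligning them to GRCm38 with STAR 2.7.9a; the submitters' processing notes also name mm10 and deepTools 3.5.1. The study's methods describe reverse-stranded gene counts from the alignment step of STAR. That this counting keeps uniquely aligned reads, and so leaves out reads shared by gene copies, is a property of that tool and is inferred here. The methods name a GENCODE release other than the M21 release used here for symbols, coordinates and transcripts. In all, 54495 identifiers matched and 37 did not. The series text calls the replicates biological. No pair of replicates agreed within sampling noise (chi-square statistic over its degrees of freedom 3.14 to 13.7). Repeat libraries of the same RNA could also exceed that noise, so this does not show that the replicates are independent. The common coefficient of variation between replicates, beyond counting error, was 3.49%.

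Genes with at least 10 reads over the 6 libraries were compared between the groups by edgeR 4.0.16 (R 4.3.3, quasi-likelihood, TMM scaling, no covariate, 2-sided), with Benjamini-Hochberg adjustment over every gene tested. The SE of a log2 fold change was derived from the test statistic, and the error on CPM is the SD of 3 libraries. DESeq2 1.42.0, limma-voom (limma 3.58.1), other filters and scalings, a replicate block and leaving out libraries were the alternatives. Sequences were aligned with Biopython 1.88, and intervals computed with scipy 1.17.1 cover counting error only. The proliferin genes and the 9 gene lists were chosen with earlier results of these data known. Named genes were the annotated Prl2c genes, up to 4 genes a list with the smallest adjusted p and subunits whose role is explained, tested neighbours within 500 kb, the siRNA targets and the 8 closest profiles; exceptions are marked. A gene that this rule selects from the growth-induced list is not reported here by name.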

Additional observations from a re-analysis of the deposited data

How the results depend on the processing

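The log2 ratio of summed proliferin was 1.98 and stayed between 1.93 and 2.03 when any 1 library was left out. It was 1.98 with DESeq2 size factors, 1.95 without scaling factors and 1.98 with Prl2c1 added. As log2 ratios of mean CPM, which differ from the fitted changes, Prl2c2 was at 1.96, Prl2c3 at 3.34 and Prl2c5 at 4.43. Without single libraries they ranged from 1.91 to 2.01, from 3.16 to 3.64 and from 3.84 to 4.57, where the value of Prl2c5 without control 2 cannot be given, as no control read is left.

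The unique share depended on the window length. For Prl2c2 it was 10.5%, 19.9%, 49.1% and 69.2% with windows of 50, 75, 150 and 300 bases, for Prl2c3 21.4%, 30.1%, 50.1% and 70.1%, and for Prl2c5 61.4%, 80.4%, 100% and 100%.

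Same-numbered libraries did not deviate together (correlations -0.00514, -0.00907 and -0.0166 across genes), so the replicate numbers were not taken as pairs. With a replicate block the summed ratio was 1.99, and 4186 genes were called higher and 3931 lower. The growth-induced list then had 2 genes called lower, the added one being Mmp9, and between 1 and 2 when any library was left out. Neighbours called higher were 3 within 250 kb. Within 1000 kb, 1 neighbour was called lower. Leaving out libraries gave 0 to 1 neighbours called lower, namely Edaradd without control 1. Across all alternatives 238 values kept within the limits set for them and 17 moved, of which 12 were window lengths. The limits were a fold range for counts and the spread between libraries for log2 ratios. Counts that were 0 in both settings were among those kept, so the tally does not measure robustness. Besides Gata2 and Maf, the calls of Errfi1, Klf9, Nr3c2, Per1, Stat6 and Tyk2 were lost without some single library. Prl8a9 could not be tested without SAFB KD 1 or 3, where too few reads were left, and DESeq2 gave it no adjusted p.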
